A study of Danio rerio with 9 samples.

Results

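The chaperonin CCT, also called TRiC, is the ATP-driven folding machine of the eukaryotic cytosol, and its subunits are encoded by the 8 genes tcp1, cct2, cct3, cct4, cct5, cct6a, cct7 and cct8. Their transcripts were measured in zebrafish gastrulae kept in pentachlorophenol, a biocide and wood preservative known as an uncoupler of oxidative phosphorylation. All probe sets whose platform annotation gives exactly 1 gene, and that gene a CCT subunit, were taken, which gave 9 of the 15617 probe sets on the array and all 8 genes. Only cct2 had 2 probe sets. The rule uses no measured value, but the family was chosen with earlier results of these data known. The groups were a deionized water control, 20 µg/L pentachlorophenol and 50 µg/L pentachlorophenol, with 3 Affymetrix arrays each. All groups were wild-type embryos of the Tuebingen strain, from short timed egg collections, picked by stage under a microscope and lysed whole during gastrulation, near 8 hours post fertilisation. The labels call the arrays biological replicates, numbered 1 to 3, but do not say how many embryos or clutches made a sample, so the spread that p-values rest on may be technical.

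As background, CCT is built of stacked rings, and each ring holds 1 copy of every subunit in a fixed order. The subunits are paralogs that share an ATP-binding domain and differ in the parts that grip unfolded chains. Actin and tubulin are its best known clients, and prefoldin delivers them. In Saccharomyces cerevisiae the subunits on one side of the ring (Tcp1, Cct2, Cct4 and Cct5) bind ATP more tightly than those on the other side (Cct3, Cct6, Cct7 and Cct8). Since actin and tubulin are needed by every cell, CCT is made in all tissues.

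Values are signals on a linear scale, which the authors scaled so that every array had a mean of about 500 after trimming. Array medians were 111.4 to 128.6 in control, 97.6 to 130.3 at 20 µg/L and 141.3 to 150.9 at 50 µg/L. The least typical array was control replicate 3, with a median Spearman correlation of 0.847 with the others over the probe sets tested, followed by 50 µg/L replicate 1 with 0.876, against 0.905 to 0.921 for the rest. Its background level, the 95th percentile of 17 tag control probe sets, was also the highest (113.8, against 50.6 to 82.6 on the other 8 arrays). The embryos carried gastrula transcripts, since 10 of 10 germ layer markers lay above that background on every array of both exposed groups and 8 of 10 on every control array, where mixl1 and vent did not. Transcripts for myod1, myog, mylpfa and tnnt3a, which mark later muscle, were not above background on all arrays of any group, while another, actc1b, was above it on every 20 µg/L and every control array. Of 2 blood and liver markers on the array, 1 was above background on every array, and fabp10a was not above it on all arrays of any group. The summed signal of 8 maternal oocyte markers was 3307 to 6088 in control, 3598 to 4845 at 20 µg/L and 14050 to 30175 at 50 µg/L, that of the 10 germ layer markers 30404 to 34822, 36313 to 42023 and 50208 to 61471, and no marker was listed at 0. That of 4 yolk syncytial layer markers was 1945 to 4047 in control, 2755 to 3979 at 20 µg/L and 4421 to 4770 at 50 µg/L. Of these, mxtx2 was above background on every control array but not on all arrays of either exposed group. That of 5 enveloping layer markers overlapped between groups, with 83288 to 105522 in control, 80941 to 101363 at 20 µg/L and 81889 to 94724 at 50 µg/L. The shifts of the oocyte and yolk syncytial layer sums move with the 50 µg/L group. The germ layer sums lay above control in both exposed groups and were highest at 50 µg/L. The part of these shifts in the values below was not tested. In whole embryos, fewer cells of a type and less RNA per cell cannot be told apart.

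At 50 µg/L all 8 subunit genes had lower mean log2 signals than in control, with log2 changes from -0.92 to -0.21, and none of the 9 probe sets passed the test adjusted over all probe sets. At 20 µg/L the log2 changes were from -0.16 to 0.32. For tcp1, cct2 and cct4 they turned on single control arrays, with 0.52, 0.39 and 0.14 without control replicate 3 and -0.25, -0.47 and -0.43 without control replicate 2. The subunits with the lowest p at 50 µg/L were cct6a, the zeta subunit, at 58.0% of the control mean (limma adjusted p = 0.0567) and cct4, the delta subunit, at 50.5% (adjusted p = 0.0772). The median log2 change of the 8 genes was -0.63 at 50 µg/L against control and 0.00 at 20 µg/L against control, beside medians of 0.11 and -0.04 over all 9301 probe sets tested.

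**Figure D1:**
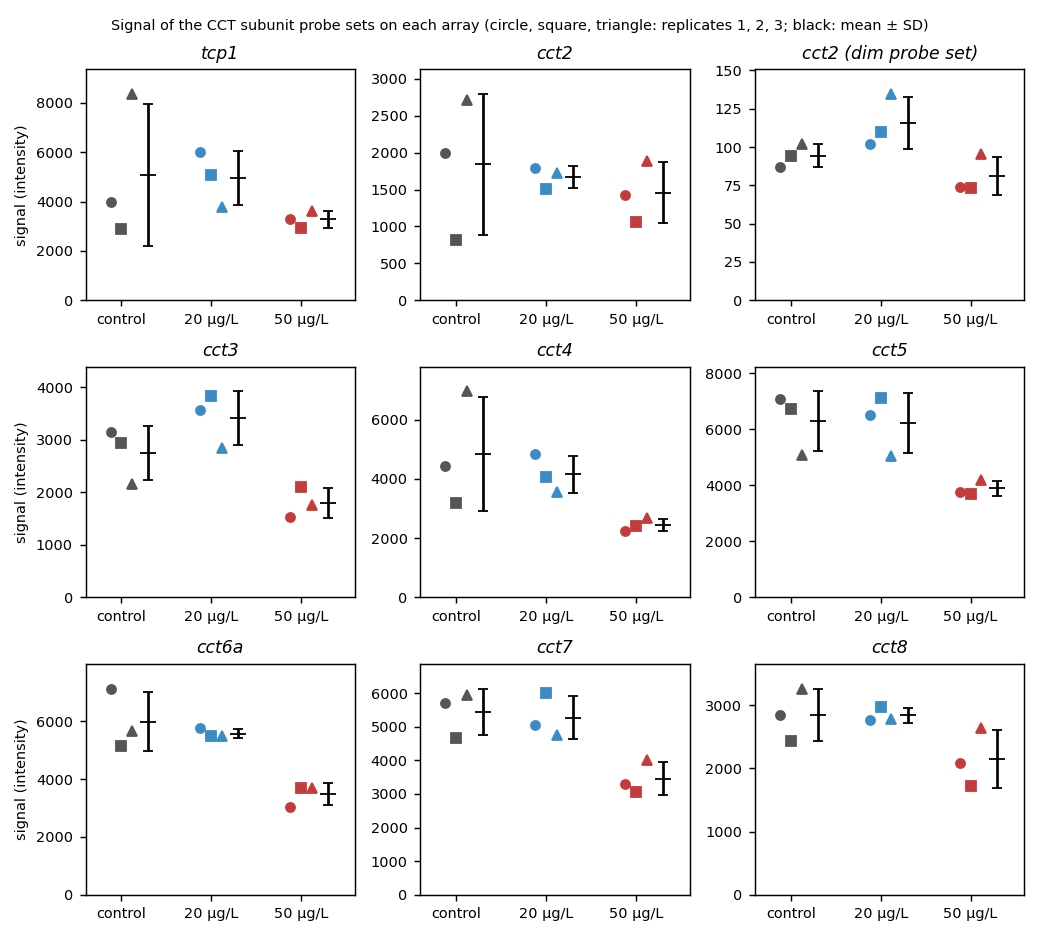
Signal intensity of the 9 CCT probe sets on each array (vertical axes start at 0, scales differ between panels) by exposure; circles, squares and triangles are replicates 1, 2 and 3, and black bars are the mean ± SD of 3 arrays. For cct3, cct4, cct5, cct6a and cct7 every 50 µg/L array lies under every control array, while in control tcp1, cct2 and cct4 spread widely.

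On the ring side known for tight ATP binding, the first subunit is alpha, encoded by tcp1. Its signals were 3982, 2894 and 8356 in control, 5995, 5070 and 3791 at 20 µg/L, and 3312, 2915 and 3601 at 50 µg/L. Control replicate 3 held the highest value of all, while of the other control arrays replicate 1 lay above and replicate 2 just under all 50 µg/L arrays, so the groups overlapped. The log2 change at 50 µg/L against control was -0.49 (SE 0.34, 95% interval -1.23 to 0.26, limma adjusted p = 0.397), and it was -0.06 without control replicate 3 and -0.82 without control replicate 2, and -0.78 with median centring. Against 20 µg/L, where no array overlapped, it was -0.58 (SE 0.34, adjusted p = 0.389).

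The beta subunit gene cct2, whose product in human cells also acts as a receptor for the autophagy of aggregates, had signals of 1994, 820 and 2706 in control, 1793, 1508 and 1726 at 20 µg/L, and 1424, 1063 and 1887 at 50 µg/L. Control arrays spanned a wider range than both exposed groups together. The log2 change at 50 µg/L was -0.21 (SE 0.39, 95% interval -1.06 to 0.64, adjusted p = 0.771), the smallest of the 8 genes, and it moved with single arrays. It was -0.71 without control replicate 2, -0.07 without control replicate 1, 0.15 without control replicate 3, and -0.42 without 50 µg/L replicate 3, while without 50 µg/L replicate 2 it was near 0, and it was -0.50 with median centring. The other cct2 probe set was dim, with signals from 73.5 to 134.6, above the tag control background on 6 of 9 arrays. Its log2 change at 50 µg/L was -0.23 (adjusted p = 0.73), and both probe sets thus lay lower by a like amount, well within their error.

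The delta subunit gene cct4, in which a missense change gives a sensory neuropathy in the rat, had signals of 4422, 3179 and 6958 in control, 4830, 4070 and 3575 at 20 µg/L, and 2249, 2419 and 2678 at 50 µg/L. All 3 arrays at 50 µg/L lay below all 6 others, and control replicate 3 was again the highest. The means were 2448 ± 216 at 50 µg/L and 4853 ± 1926 in control (SD, n = 3 arrays each). Its limma log2 change was the largest of the family, -0.92 (SE 0.28, 95% interval -1.53 to -0.30, adjusted p = 0.0772), and 3.96% of all probe sets tested had a lower value. Without control replicate 3 the change was -0.62, and without control replicate 2 it was -1.18 and passed (adjusted p = 0.0259). In the latter fit 7.89% of all probe sets were called.

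The epsilon subunit gene cct5, altered in a human hereditary sensory neuropathy, had signals of 7060, 6719 and 5064 in control, 6505, 7123 and 5056 at 20 µg/L, and 3773, 3698 and 4205 at 50 µg/L. Here control replicate 3 was the lowest control array, and the 50 µg/L arrays lay below all others. The log2 change at 50 µg/L against control was -0.68 (SE 0.22, 95% interval -1.16 to -0.19, adjusted p = 0.0908). At 20 µg/L it was -0.01, with an interval of -0.50 to 0.47.

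On the ring side of weaker ATP binding, the gamma subunit gene cct3 had signals of 3138, 2929 and 2164 in control, 3564, 3824 and 2844 at 20 µg/L, and 1526, 2099 and 1765 at 50 µg/L. The 50 µg/L arrays were the lowest of the 9, though the highest of them (2099) came close to control replicate 3 (2164). The log2 change was -0.60 against control (SE 0.25, 95% interval -1.14 to -0.07, adjusted p = 0.158) and -0.93 against 20 µg/L (SE 0.25, 95% interval -1.46 to -0.39, adjusted p = 0.0857). At 20 µg/L cct3 had the highest positive change among the 8 genes, 0.32 against control (95% interval -0.22 to 0.86, adjusted p = 0.738). The fit without control replicate 3 called cct3 lower at 50 than at 20 µg/L (-0.93, adjusted p = 0.0383), beside 3.52% of all probe sets called.

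The zeta subunit gene cct6a, which has a testis paralog in mammals, had signals of 7132, 5154 and 5678 in control, 5756, 5496 and 5482 at 20 µg/L, and 3040, 3679 and 3705 at 50 µg/L. The 20 µg/L arrays lay within the control range and the 50 µg/L arrays below it. The means were 3475 ± 376 at 50 µg/L and 5988 ± 1025 in control (SD, n = 3 arrays each). The limma log2 change was -0.78 (SE 0.21, 95% interval -1.24 to -0.32), the lowest p of the family at an adjusted p of 0.0567. It passed without control replicate 2 (-0.88, adjusted p = 0.0393), where 7.89% of all probe sets were called. Other settings in which it passed are given below. The change was -0.64 without control replicate 1 (adjusted p = 0.137) and -0.68 without 50 µg/L replicate 1 (adjusted p = 0.227). With quantile normalization it was -0.60 (adjusted p = 0.106).

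The eta subunit gene cct7 had signals of 5718, 4658 and 5951 in control, 5061, 5996 and 4746 at 20 µg/L, and 3291, 3069 and 4011 at 50 µg/L. Its 50 µg/L arrays lay below all others. The log2 change was -0.66 against control (SE 0.22, 95% interval -1.13 to -0.18, adjusted p = 0.0922). The theta subunit gene cct8, whose product promotes assembly of the complex in Caenorhabditis elegans and human stem cells, had signals of 2842, 2432 and 3264 in control, 2766, 2971 and 2779 at 20 µg/L, and 2081, 1724 and 2646 at 50 µg/L. One 50 µg/L array, replicate 3, lay inside the control range. The log2 change was -0.42 (SE 0.24, 95% interval -0.93 to 0.10, adjusted p = 0.302), and it was -0.27 without 50 µg/L replicate 2 and -0.70 with median centring.

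**Figure D2:**
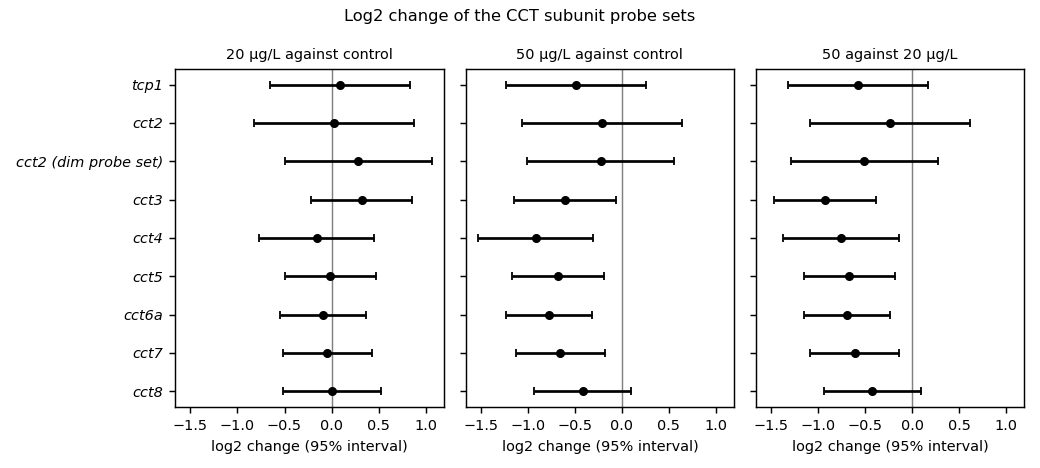
Log2 change of each CCT probe set (points) with its 95% interval from the limma fit (bars), for the contrasts of 20 µg/L with control, of 50 µg/L with control and of the higher with the lower dose. Intervals for cct3, cct4, cct5, cct6a and cct7 lie below 0 in both comparisons of 50 µg/L, while every interval for 20 µg/L spans 0.

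Over the family, 0 of 9 probe sets were called at 50 µg/L against control by limma, where 1.03% of all probe sets tested were called lower and 4.55% were called in either direction. At an unadjusted p below 0.05, 5 of 9 were lower, those of cct3, cct4, cct5, cct6a and cct7, against 8.63% of all probe sets. The same 5 had no overlap between groups, against 10.4%. All 9 had a lower mean log2 signal, against 43.6%. The 8 bright probe sets had mean signals from 1658 to 5467, and among the other 1133 probe sets in that range the median log2 change was -0.13. In that range 16.3% were lower at an unadjusted p below 0.05, 18.1% lay lower with no overlap and 59.8% had a lower mean log2 signal, and all 8 genes had a log2 change below that median.

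The 20 µg/L exposure gave no member call, and limma called 0% of all probe sets in that comparison (0 of 9301, with 727 at an unadjusted p below 0.05). None of the 9 probe sets was lower at an unadjusted p below 0.05, where the share over all was 3.49%, and none lay lower with no overlap, where it was 6.91%. The mean log2 signal was lower for 4 of 9, against 53.2%, and the mean linear signal for 7 of 9, against 56%. The intervals of cct5, cct6a and cct7 reached from -0.55 to 0.47, and changes inside a gene's own interval were not excluded. That range is not a detection limit. At 50 µg/L against control the larger changes of these genes (-0.68, -0.78 and -0.66) were not called either.

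Between the doses, 0 of 9 probe sets were called at 50 against 20 µg/L, beside 1.42% of all probe sets in either direction. Lower values at an unadjusted p below 0.05 were found for 5 of 9 (cct3, cct4, cct5, cct6a and cct7), against 5.14% over all. Of the 9, 8 lay lower with no overlap between the doses, the exception being the bright cct2 probe set, against 9.77%. A lower mean log2 signal was found for 9 of 9, against 41.5%, and the median log2 change of the 8 genes was -0.64 beside 0.12 over all. Among the 1133 probe sets of like signal 12.3% were lower at an unadjusted p below 0.05, 22.6% lay lower with no overlap and 67.3% had a lower mean log2 signal. This comparison and that of 50 µg/L against control share the 50 µg/L arrays. The F test of any difference from control at either dose called 0 of 9, against 1.73% of all probe sets, and 5 of 9 had an unadjusted p below 0.05, against 21.5%.

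The member calls depended on how arrays were scaled and weighted. With each array centred on its median, cct4, cct5, cct6a and cct7 were called lower at 50 µg/L against control (adjusted p = 0.0437, 0.049, 0.0298 and 0.0487), beside 5.98% of all probe sets called in either direction and 3.78% called lower. That scaling shifts all probe sets of an array alike, and it moved the median change of all probe sets to -0.18. Relative to that median, the median of the 8 genes is -0.74 with the deposited scaling and with median centring by construction. Quantile normalization, which does not shift all probe sets alike, gave -0.43 and no CCT call, beside 4.91% of all probe sets called. The lower share of all calls was 22.7% with the deposited scaling, 63.3% with median centring and 40.7% with quantile normalization. With array weights, which gave control replicate 3 the lowest weight (0.271), cct3 was called as well, for 5 of 9 probe sets, beside 18.6% of all probe sets called in either direction and 6.5% called lower.

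The deposited values of the replicate 3 arrays carry more decimals than those of the other 6, so they may have been exported separately. They hold 1 array of each group and give no test of their own. Within the other 6 arrays the log2 changes at 50 µg/L against control were -0.13 for tcp1, -0.06 for cct2, -0.76 for cct3, -0.68 for cct4, -0.88 for cct5, -0.86 for cct6a, -0.70 for cct7 and -0.47 for cct8, and 0 of 9 probe sets were called. Of all probe sets, 4.83% were called there in either direction and 0.785% called lower. With the number of decimals as a block, 0 of 9 CCT probe sets were called in all comparisons. In that setting 5.07% of all probe sets were called at 50 µg/L against control, 0% at 20 µg/L against control and 1.68% at 50 against 20 µg/L. For the F test no share was taken with this block.

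**Figure D3:**
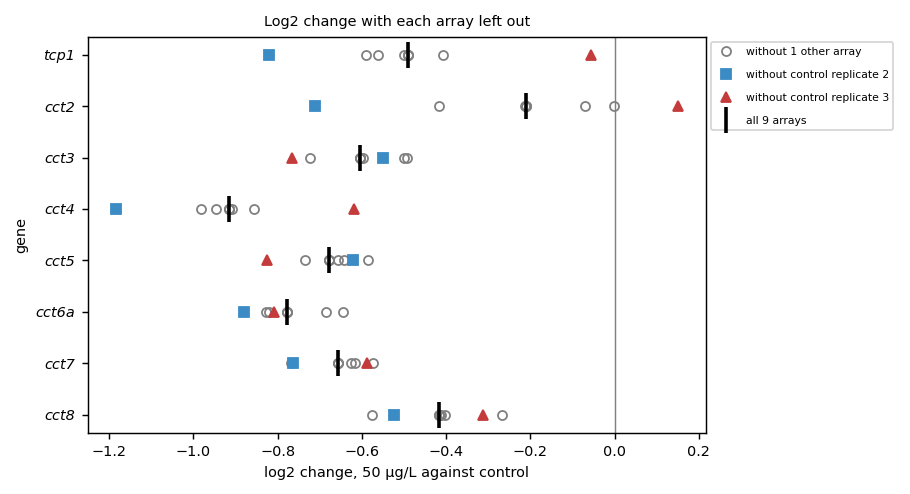
Log2 change of each CCT gene at 50 µg/L against control with all 9 arrays (black bar) and with 1 array left out (symbols). Leaving out control replicate 3 brings tcp1 to -0.06 and cct2 to 0.15, while cct3, cct4, cct5, cct6a and cct7 stay below -0.49 without any single array.

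The subunits did not vary alike within the control group. The coefficient of variation over the 3 control arrays was 56.9% for tcp1, 51.8% for cct2 and 39.7% for cct4, against 12.7% to 18.7% for the other 5 genes. Control replicate 3 held the highest control value of tcp1, cct2, cct4, cct7 and cct8 and the lowest of cct3 and cct5. Control replicate 2 held the lowest control value of tcp1, cct2, cct4, cct6a, cct7 and cct8. At 50 µg/L the coefficient was 10.5% for tcp1, 28.3% for cct2 and 8.82% for cct4.

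As a description over the 9 arrays, which share their scaling and the 3 groups, the median Pearson correlation of log2 signals over the 28 pairs of subunits was 0.71, with a range from -0.04 (cct2 with cct3) to 0.93 (cct7 with cct8). The median over all pairs of probe sets tested, at all signal levels, was 0.02, and none was taken over probe sets of like signal. With each group's mean taken off, the median was 0.34, and 9 of 28 pairs were negative. The highest such pair was tcp1 with cct4 (0.97) and the lowest cct2 with cct3 (-0.50), while cct3 went with cct5 (0.78). In control, tcp1, cct2 and cct4 ordered the arrays in one way and cct3 and cct5 in another. At 50 µg/L cct5 ordered them as tcp1 and cct2 did, so the split did not hold in every group.

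**Figure D4:**
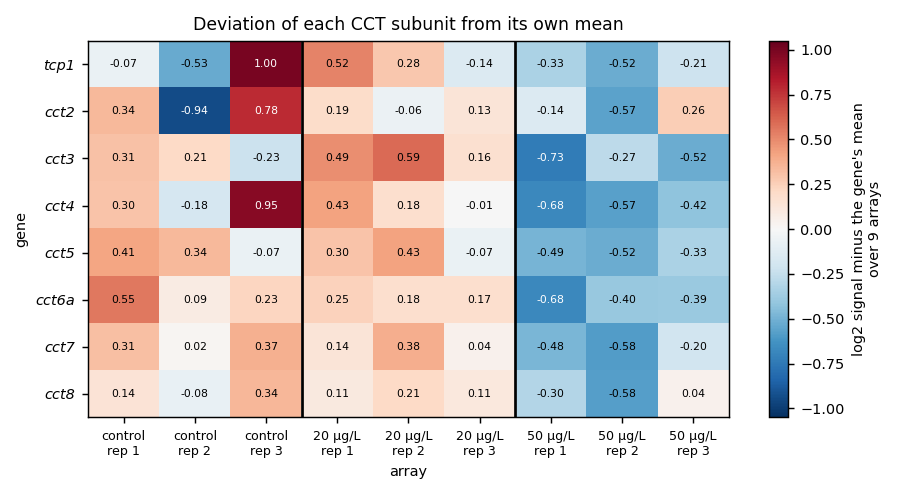
Log2 signal of each CCT gene minus its mean over the 9 arrays (colour and printed value), by array. The 3 arrays at 50 µg/L lie below the gene's mean in all cells but those of cct2 and cct8 in replicate 3, and control replicate 3 shows high tcp1, cct2 and cct4 beside cct3 and cct5 just under their means.

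Averaged over the 8 genes, the deviation was 0.29, -0.13 and 0.42 on the control arrays, 0.30, 0.27 and 0.05 at 20 µg/L, and -0.48, -0.50 and -0.22 at 50 µg/L. The 3 lowest arrays were thus the 50 µg/L ones, and control replicate 2 was the next. The number of genes above their own mean was 0, 0 and 2 of 8 on the 50 µg/L arrays and 4 to 7 of 8 on the control arrays.

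The 5 genes whose log2 profile was most like the mean standardized profile of the subunits over the 9 arrays were dmd (r = 0.99), abcf1 (0.98), dhx15 (0.98), nutf2 (0.98) and srsf1a (0.97). They encode dystrophin, an ATP-binding cassette protein of translation, an RNA helicase of splicing, a nuclear transport factor and a splicing factor. Their log2 changes at 50 µg/L against control were -0.73, -0.94, -0.69, -1.06 and -0.92, and none passed (limma adjusted p from 0.0512 to 0.127). The genes were chosen by their likeness over these same arrays, so negative changes at 50 µg/L follow from the choice. Another probe set of dmd had 0.06 and another of abcf1 had 1.28, so the probe sets of dmd and abcf1 disagree, while another of nutf2 had -0.74.

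Around the chaperonin, the delivery and cofactor genes gave no calls at 50 µg/L. The prefoldin list had 6 genes tested, pfdn2, vbp1, pfdn4, pfdn5, pfdn6 and the prefoldin-like gene uri1. Of these 6 genes 0 passed, with a median log2 change of -0.35 and 5 of 6 lower. The gene with the highest signal, vbp1, had -0.44 (limma adjusted p = 0.278). Of 3 cofactors tested 0 passed, with a median of -0.29. The phosducin-like gene pdcl3, whose product binds CCT, had 1267, 1311 and 1363 at 50 µg/L, against 1803, 1803 and 2609 in control, with no overlap (-0.63, adjusted p = 0.13). The cofactor gene pdcd5, which had the highest signal of the 3, had 0.21 (adjusted p = 0.801). Of 5 tubulin folding cofactors 0 passed, with a median of -0.15 and 3 of 5 lower. Positive changes with no overlap were found for arl2 (1.09, adjusted p = 0.0888) and tbcc (0.51, adjusted p = 0.273), which were named after their values were seen. The arl2 signal on control replicate 3 (83.1) lay under that array's background level (113.8). For tbcc the lowest 50 µg/L value (380.4) was close to the highest control value (375.3). No share over all probe sets was taken for higher values with no overlap. Of the relatives of CCT outside the ring only mkks was tested (0.39, adjusted p = 0.541).

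Among the clients, 2 of 12 actin and tubulin genes were called lower at 50 µg/L, against 1.03% of all probe sets, and none was called higher. The median was -0.36, and 8 of 12 were lower. At an unadjusted limma p below 0.05, 5 of 12 were lower and 2 of 12 higher. Of all 9301 probe sets 2289 had such a p, and 803 of these were lower (8.63% of all). No share was taken over probe sets with signals like those of these 12 genes. The beta tubulin gene tubb2b had signals of 8524, 10657 and 9447 at 50 µg/L, against 16529, 19994 and 22426 in control. In the limma fit it fell by 1.04 on the log2 scale (adjusted p = 0.0278, SE 0.22), and its other probe set fell by 0.92 on the log2 scale (adjusted p = 0.0446). These probe sets share a base name on the array, so they may not be independent measures. The alpha tubulin gene tuba8l4 had 18813, 17895 and 16699 at 50 µg/L, against 30954, 25449 and 38062 in control (-0.80, adjusted p = 0.0444). Both were lower with no overlap. The call of tubb2b was lost without any 1 of the 3 arrays at 50 µg/L (adjusted p up to 0.153), and that of tuba8l4 without these, without control replicate 1 or 3, or replicate 1 of the 20 µg/L group (adjusted p at most 0.168). Calls over all probe sets fell as well, from 423 to 0, 84 and 165 without 50 µg/L replicates 1, 2 and 3. Without replicate 1 no gene could thus keep its call. With no filter, quantile normalization or no intensity trend both calls were lost as well (adjusted p up to 0.0685 for tubb2b and 0.128 for tuba8l4), and that of tuba8l4 also with the replicate block (0.0708), among the 6 arrays with 1 decimal (0.106) and with only the groups compared in the fit. Quantile normalization also brought the changes to -0.64 for tubb2b and -0.40 for tuba8l4. The actin genes actb1 and actb2 had -0.59 and -0.50 and did not pass (adjusted p = 0.0898 and 0.159). Positive changes that did not pass were found for the tubulin genes tuba4l (0.97, adjusted p = 0.0736) and tubb4b (0.64, adjusted p = 0.17), which were named after their values were seen. Another probe set of tubb4b had 0.61 (adjusted p = 0.267). Of 9 other clients known from other species, mostly WD40 proteins and cell cycle regulators, 0 passed, with a median of 0.27. The ribosome-bound WD40 protein gene rack1 had -0.35 and the mitotic kinase gene plk1 had 0.54 (adjusted p = 0.366 and 0.114).

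**Figure D5:**
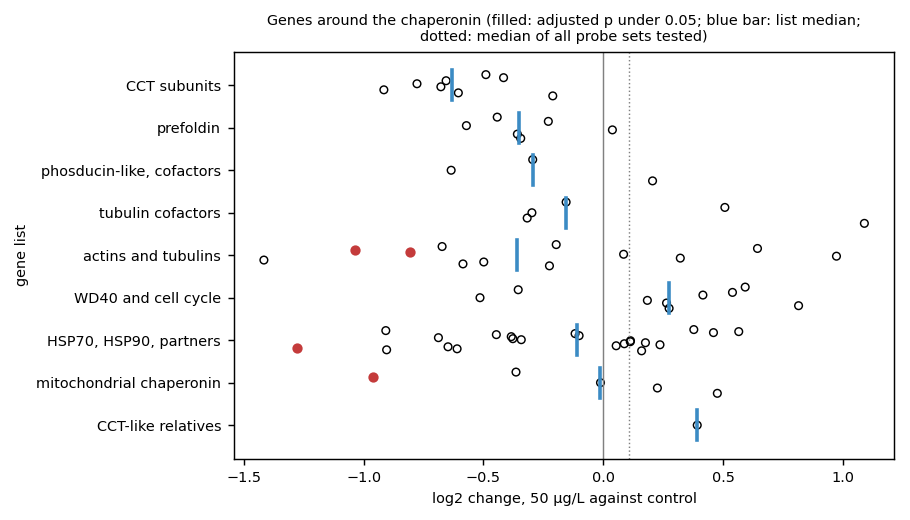
Log2 change at 50 µg/L against control of each tested gene (circles) in the CCT family and 8 lists around it; filled circles passed the adjusted test, blue bars are list medians and the dotted line is the median of all probe sets tested (0.11). The CCT genes all lie left of 0 with a median of -0.63, and the filled points are tubb2b, tuba8l4, dnaja2a and hspe1.

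Among other folding machines, 1 of 22 cytosolic HSP70, HSP90 and partner genes was called lower at 50 µg/L, against 1.03% of all probe sets. None was called higher, and the median was -0.11. The called gene was dnaja2a, a J-protein that drives HSP70 (-1.28, SE 0.27, limma adjusted p = 0.0278). Its call was lost without control replicate 1 or any 1 array at 50 µg/L (adjusted p up to 0.153) and with no intensity trend (0.0515). Calls over all probe sets also fell without each of these 4 arrays, to 0 without 50 µg/L replicate 1 and 185 without control replicate 1, against 423. The small heat shock protein gene hspb1 had -0.12 and hspa8, the constitutive cytosolic HSP70 gene, had -0.45 (adjusted p = 0.749 and 0.207). Of 5 mitochondrial chaperonin and partner genes, hspe1 fell (-0.96, SE 0.20, adjusted p = 0.0272), lost without any 1 of the same 4 arrays (adjusted p up to 0.123), with no intensity trend or with only the groups compared in the fit (up to 0.0574), while hspd1, its partner in the mitochondrial ring, had -0.01 (adjusted p = 0.982). In these lists nothing passed at 20 µg/L against control or at 50 against 20 µg/L. At an unadjusted limma p below 0.05, few of their genes differed at 20 µg/L. Lower were 1 of 6 genes of the prefoldin list, 1 of 9 other clients and 1 of 5 mitochondrial genes, and none in the other lists. Over all probe sets 3.49% were lower. Of the 9 other clients 1 was higher, and no gene of the other lists was. In either direction 727 of all 9301 probe sets had such a p.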

How the data were processed

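Total RNA of the 9 samples was hybridised to Affymetrix arrays. The authors deposited 1 linear signal intensity per probe set and array, made with GCOS and MAS5 per the submitters' processing notes, whose versions are not given in the sources used here. With 2% trimmed at each end, the mean was 500.1 to 500.2 on every array. Gene names came from the platform annotation, updated through Entrez IDs: 10802 probe sets had 1 gene, 135 several and 4680 none.

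From these values log2(intensity + 1) was computed. After removal of 115 control probe sets and of the 40% dimmest by mean signal, 9301 were tested, all 9 CCT probe sets among them. One limma 3.58.1 model (R 4.3.3, intensity trend) held all 9 arrays, with p-values adjusted by Benjamini-Hochberg over all probe sets and a threshold of 0.05. A gene with several probe sets is represented by the one with the highest mean. The script was tested on simulated data. The number of arrays limits the precision. The members and gene lists were chosen with earlier results of these data known. All members are named, and the 5 genes most like them. Of each list, called genes and 1 or 2 uncalled genes of high signal are named, besides the few said to be named after their values were seen. The alternatives covered the offset, filter, normalization, array weights, variance model, samples fitted, blocks, dim values, probe set choice and left-out arrays.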

Additional observations from a re-analysis of the deposited data

How the results depend on the processing

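None of the CCT probe sets was called at 20 µg/L against control under any alternative. Almost no other probe set was called there either. The highest share over all probe sets was 0.226% (21 of 9301), among the arrays with 1 decimal, so the absence of calls is not particular to CCT. At 50 µg/L against control 0 CCT probe sets were called with all arrays, beside 4.55% of all probe sets. The count was 1 when the dimmest 60% were dropped (cct6a), 4 with median centring and 5 with array weights. In these settings 5.85%, 5.98% and 18.6% of all probe sets were called. At 50 against 20 µg/L the count was 6 with array weights, where 21% of all probe sets were called. It was 3 among the arrays with 1 decimal (cct3, cct4 and cct5), where 12.6% were. With only the groups compared in the fit it was 1 (cct3), where 4.38% were, against 1.42% in the main fit. For both doses against control the count was 5 with array weights and 1 among the arrays with 1 decimal (cct5). For that test no share over all probe sets was taken in these settings. Leaving out 1 array gave 0 to 2 at 50 µg/L against control and 0 to 1 at 50 against 20 µg/L. The 2 were cct4 and cct6a without control replicate 2, where 7.89% of all probe sets were called and 2.39% called lower. The 1 was cct3 without control replicate 3, where 3.52% of all probe sets were called. With the mean of a gene's probe sets cct6a passed (adjusted p = 0.0495). All 8 genes were lower at 50 µg/L than in control in every alternative except cct2 without control replicate 3. Many of the alternatives could not change this direction. The filters, variance models, blocks, fits of only the groups compared and left-out 20 µg/L arrays give the same log2 change as the main fit.

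Deviations from the group means gave r from -0.16 to 0.23 between same-numbered arrays and from -0.31 to 0.22 between the others. Of 9 arrays, 4 correlated best with their own number. With 3 arrays a group, this check cannot tell whether the numbers pair the samples. With the replicate block 0 CCT probe sets were called in each comparison, and over all probe sets at 50 µg/L against control 247 were called, against 423 without it. With that block 0.548% of all probe sets were called at 50 against 20 µg/L and 0% at 20 µg/L against control.

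With 3 arrays a group, the wide control spread of tcp1 and cct2 limits what could be seen: their intervals at 50 µg/L reach from -1.23 to 0.26 and from -1.06 to 0.64. Without 50 µg/L replicate 1 limma called 0 of 9301 probe sets in that comparison, and the members' median was -0.56.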
